A study of Mus musculus with 4 samples.

Results

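The Zfp genes are the mouse genes named as zinc finger proteins with a number. They were examined here in group 3 innate lymphoid cells (ILC3s), innate lymphocytes of barrier tissues that are a source of IL-22. Members were selected on their counts, as the genes whose symbol is Zfp followed by a number, and whose mean over the 4 libraries was 20 counts or more. Zfp36, Zfp36l1, Zfp36l2 and Zfp36l3, which are RNA-binding proteins of another kind, were left out. The rule kept 247 of the 382 Zfp-number symbols in the deposited table, out of 24343 genes in all. The counts by which the members were chosen are the counts compared below, so the level of a member is a description. All 247 members passed the filter of the test and had reads in every library. The mean fell under 20 counts in the TL1A libraries for 10 members, of which 4 were called, and in the medium libraries for 1 member, which was not called. Such members entered through the group in which they were high. The 4 called ones were Zfp385c, Zfp184, Zfp72 and Zfp579, all lower with TL1A. The call of Zfp579 was lost with RLE factors (edgeR adjusted p = 0.0504) and a replicate block (edgeR adjusted p = 0.0763). It was also lost with DESeq2 (adjusted p = 0.185) and limma-voom (adjusted p = 0.0710).

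Cells were stimulated with TL1A in 2 libraries and kept in medium in the other 2. TL1A is a cytokine of the TNF superfamily that signals through the receptor DR3. All 4 libraries were made from cells sorted by flow cytometry as Lin-, CD127+ and GFP+ from mice of the genotype IL23R-GFP/WT, which carry a GFP reporter at 1 copy of the IL-23 receptor locus. TL1A and medium cells therefore share the reporter allele, and the stimulated cells are cells in which that locus was active. No source used here gives the age of the mice or the dose and duration of the stimulation. The labels do not tell whether replicate libraries stem from different animals or cultures. The p-values below therefore reflect the spread between libraries alone, and that spread may be technical.

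A C2H2 zinc finger is a short fold held by a zinc ion, in which a pair of cysteines and a pair of histidines bind the metal. Arrays of such fingers read DNA sequence, and a few bind RNA or other proteins. Many of these proteins carry a KRAB box near the amino terminus, which recruits the scaffold protein TRIM28 (KAP1). TRIM28 in turn brings the histone methyltransferase SETDB1, the HP1 proteins and the NuRD complex, and this machinery is best known for silencing retroelements and for keeping imprints. KRAB zinc finger genes lie in clusters that arose by repeated duplication, so that neighbours often resemble each other. These statements are background and not results of the data.

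The TL1A libraries held 11849977 and 12605164 assigned reads, and the medium libraries held 11495636 and 12222552. Of 12 fixed ILC3 marker genes, all had reads, although Kit had 1 read in 1 medium library and 0 in the other 3. The defining B cell genes Ms4a1 and Pax5 were at 0 in every library, as was the T cell gene Cd8a. Reads in exons shared by several transcript rows were not counted, so a 0 in a gene with several rows need not mean absence. Summed marker levels moved with the groups for some other cell types. The 5 B cell genes summed to 114 and 97.8 CPM in TL1A libraries, against 36.5 and 47.8 CPM in medium libraries, nearly all of it from Cd79b. The 5 myeloid genes summed to 30.8 and 43.2 CPM in TL1A libraries, against 75.2 and 81.9 CPM in medium libraries, with Itgam at 0. Cd14 carried that difference, as the other myeloid genes summed to 26.0 and 37.5 CPM with TL1A, against 29.5 and 32.6 CPM in medium, which overlap. The 5 epithelial and stromal genes, of which 1 was at 0, summed to 3.35 and 3.02 CPM with TL1A, against 11.9 and 6.74 CPM in medium, and the 4 T cell genes to 5.02 and 5.60 CPM with TL1A, against 1.67 and 4.64 CPM in medium. The part of these cells in the results below was not tested. In bulk RNA, fewer cells of a type and less RNA per cell cannot be told apart.

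More Zfp genes were lower than higher with TL1A. With edgeR's quasi-likelihood test and an adjusted p under 0.05 (Benjamini-Hochberg over 9852 genes), 26 members were higher, 67 were lower and 154 were not called. Those 26 and 67 made 10.5% and 27.1% of the members, whereas 20.6% of all genes tested were higher and 21.7% were lower. Together 37.7% of the members were called, against 42.3% of all genes tested. The median log2 fold change was -0.23 over the members and -0.03 over all genes tested, and 70.0% of the members had a negative value, against 51.9% of all genes tested. Of the genes that met the same minimum count, 21.9% were higher, 22.9% lower and 44.9% called in all. The members differed from the background in the split between directions more than in how many were called, and the split was not tested.

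Large changes were few among the members. A called change of at least 2-fold was found for 27 members, or 10.9%, against 19.4% of all genes tested. Of these, 5 were higher, or 2.02% of the members against 8.77% of all genes tested, and 22 were lower, or 8.91% against 10.6%. The TL1A and medium libraries did not overlap for 74.1% of the members, against 72.2% of all genes tested. The plot of level against change shows the members as a narrow band within the wider scatter of the other genes.

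**Figure D1:**
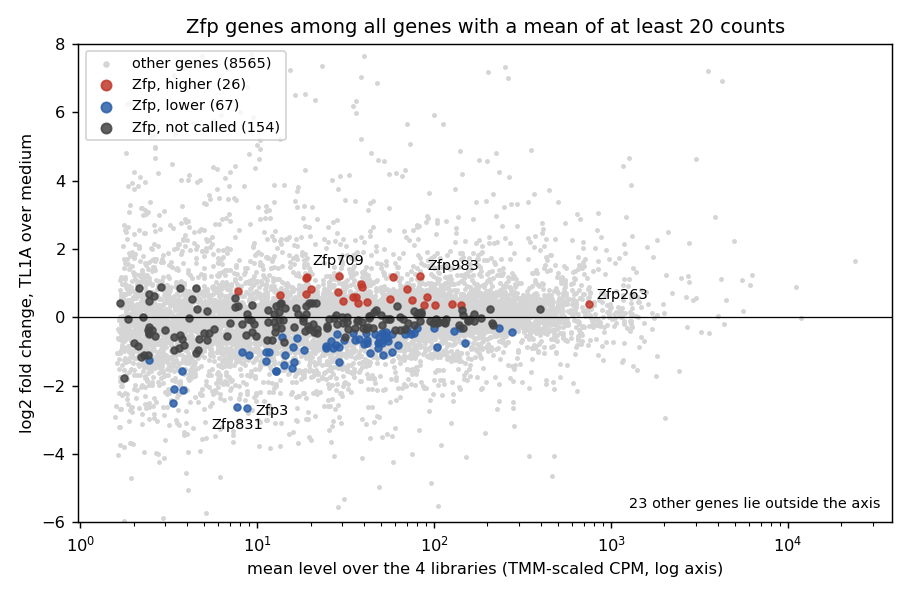
Each point is a gene whose mean count was 20 or more. The horizontal axis gives the mean level over the 4 libraries in TMM-scaled CPM on a log scale, and the vertical axis the log2 fold change of TL1A over medium. Zfp genes are red where higher (26), blue where lower (67) and dark grey where not called (154); the 8565 other genes are light grey, and 23 of them lie outside the axis. The Zfp points run from -2.66 to 1.21.

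The members took a smaller part of the library with TL1A. They held 120434 and 128981 reads in TL1A libraries, against 152577 and 158744 reads in medium libraries. This was 1.02% and 1.02% of assigned reads with TL1A, against 1.33% and 1.30% in medium, and the groups did not overlap. On the TMM scale, which sets most genes as unchanged, the summed level was 11201 and 11121 CPM with TL1A, against 12149 and 11889 CPM in medium. The size of the difference therefore depended on the scaling. With total counts in place of TMM factors, an alternative chosen after seeing the data, the median of all genes moved to -0.29 and that of the members to -0.49. Relative to all genes the members' median lay at -0.20 under either scaling. A change of scaling moves every gene by nearly the same amount, so this difference could hardly change and is no test of the scaling. With total counts the split became 10 higher and 120 lower members (4.05% and 48.6%), against 26 and 67 with TMM. All genes moved the same way under that scaling, to 13.3% higher and 35.3% lower. All 67 lower members kept their call and all 10 higher ones were among the 26, none of which turned negative. The shift was downward for genes in general, so the kept lower calls are no test of the scaling either.

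Deeply counted members were called more often, as were deeply counted genes in general. Among members with a mean of 300 counts or more, 65 of 130 were called, or 50% against 52.5% of all genes at that depth, with 15.4% higher and 34.6% lower against 28.3% and 24.3%. Between 100 and 300 counts 21 of 64 members were called, or 32.8% against 40.4%, and between 20 and 100 counts 7 of 53, or 13.2% against 29.9%. Members with 20 to 100 counts were thus called less often than other genes of that depth, a difference that was not tested. The number of higher members fell when TL1A replicate 1 was left out, as did that of all genes tested. That fit leaves 1 TL1A library, so how far the members rested on replicate 1 cannot be told from it. The members' median log2 fold change was -0.22 without TL1A replicate 1.

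The largest increase among the members was that of Zfp983, a KRAB gene of chromosome 17. It had 1233 and 1361 reads in TL1A libraries, against 671 and 625 reads in medium libraries. Its level was 116 ± 1.88 CPM with TL1A and 50.1 ± 4.68 CPM in medium (SD, n = 2 each), a log2 fold change of 1.21 (edgeR adjusted p = 0.000119, SE 0.11). Both TL1A libraries stood well above both medium libraries. Zfp709 had 383 and 518 reads with TL1A, against 180 and 274 in medium, a log2 fold change of 1.202 (edgeR adjusted p = 0.00314, SE 0.21). Its libraries differed more within a condition, and the conditions did not overlap. Zfp597 had 950 and 857 reads with TL1A, against 427 and 499 in medium, a log2 fold change of 1.18 (edgeR adjusted p = 0.000381, SE 0.13). Zfp456 had 266 and 326 reads with TL1A, against 148 and 157 in medium, a log2 fold change of 1.17 (edgeR adjusted p = 0.00109, SE 0.16). Zfp382, whose human counterpart ZNF382 is known as a repressor of NF-κB and AP-1 signalling genes in tumour cells, was the last of the 5 members that rose at least 2-fold. It had 298 and 284 reads with TL1A, against 130 and 174 in medium, a log2 fold change of 1.16 (edgeR adjusted p = 0.00204, SE 0.18). All 5 were classed as having a KRAB box, although Zfp597 matched only part of the pattern used to find it.

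Of the next 3 increases, 2 were also KRAB genes. Zfp658, whose human counterpart ZNF658 is known for zinc-dependent gene repression, had 530 and 610 reads with TL1A, against 288 and 380 in medium, and rose by 0.99 on the log2 scale (SE 0.15). Zfp608, which has no KRAB box, had 571 and 564 reads with TL1A, against 338 and 378 in medium, and rose by 0.88 (SE 0.13). Zfp760 had 925 and 1080 reads with TL1A, against 688 and 610 in medium, and rose by 0.83 (SE 0.13). None of the 3 overlapped between the conditions, and their edgeR adjusted p-values lay between 0.00141 and 0.00167. The other 18 higher members rose by 0.35 to 0.82 on the log2 scale, from Zfp407 to Zfp296.

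The decreases reached further. Zfp3, a protein of 13 fingers with no KRAB box found, had 25 and 28 reads in TL1A libraries, against 195 and 194 reads in medium libraries. Its level was 2.37 ± 0.063 CPM with TL1A and 15.03 ± 0.71 CPM in medium (SD, n = 2 each), a log2 fold change of -2.66 (edgeR adjusted p = 0.000106, SE 0.23). The libraries of a condition were nearly alike. Zfp831 had 29 and 18 reads with TL1A, against 156 and 187 in medium, a log2 fold change of -2.64 (edgeR adjusted p = 0.000417, SE 0.31). Zfp385c had 12 and 10 reads with TL1A, against 87 and 59 in medium, a log2 fold change of -2.51 (edgeR adjusted p = 0.00225, SE 0.41). Zfp831 and Zfp385c likewise had no KRAB box found, and carried 2 and 3 fingers. Zfp385c, Zfp184 and Zfp72 averaged under 20 reads with TL1A and met the minimum through the medium libraries. Zfp184, a protein of 18 fingers, was classed as a KRAB gene although it matched only part of the pattern. It had 20 and 11 reads with TL1A, against 85 and 74 in medium, a log2 fold change of -2.13 (edgeR adjusted p = 0.00402, SE 0.39). Zfp72 had 21 and 7 reads with TL1A, against 83 and 58 in medium, a log2 fold change of -2.10 (edgeR adjusted p = 0.0148, SE 0.52). The TL1A libraries of Zfp72 lay apart, and without medium replicate 1 the call was lost at an edgeR adjusted p of 0.0566.

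The next 3 decreases were of similar size. Zfp947 had 74 and 68 reads with TL1A, against 248 and 245 in medium, and fell by 1.58 on the log2 scale (edgeR adjusted p = 0.000585, SE 0.20). Zfp976 had 16 and 26 reads with TL1A, against 72 and 73 in medium, and likewise fell by 1.58 (edgeR adjusted p = 0.00793, SE 0.34). Zfp57, the KRAB protein that keeps DNA methylation at imprinted loci, had 68 and 76 reads with TL1A, against 252 and 243 in medium, and fell by 1.57 (edgeR adjusted p = 0.000512, SE 0.19). Zfp57 was summed over 4 transcript rows. In all 3 genes the conditions lay far apart, as the plot of the largest changes shows. The log2 fold changes of the other 59 lower members lay between -1.497 (Zfp652) and -0.30 (Zfp292).

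**Figure D2:**
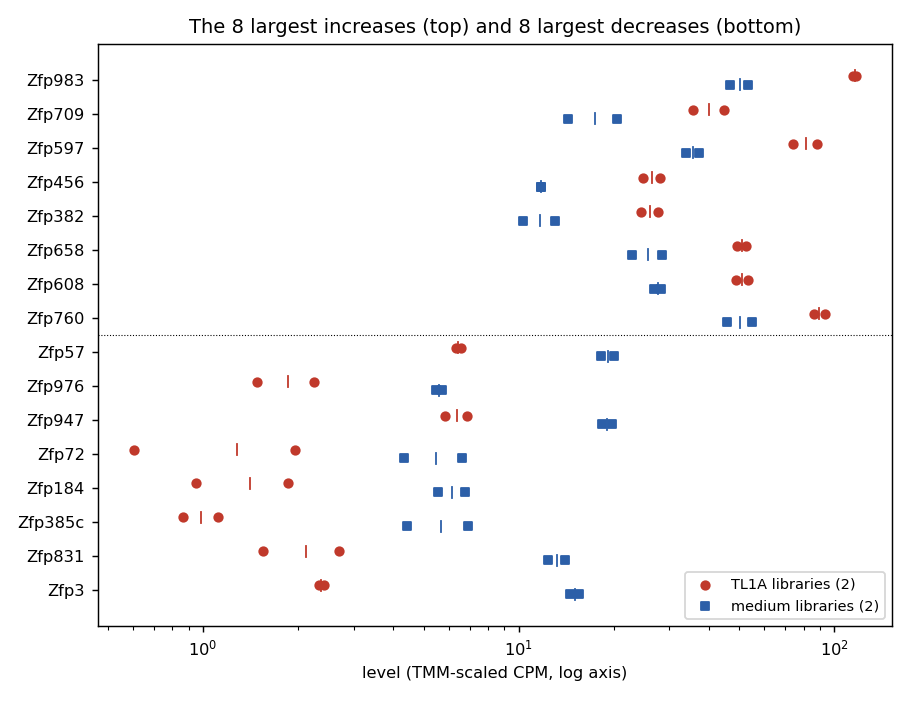
Levels of the 8 members with the largest called increases (top) and the 8 with the largest called decreases (bottom) in TMM-scaled CPM on a log axis. Red circles are the 2 TL1A libraries, blue squares the 2 medium libraries, and the vertical ticks their means. No pair of conditions overlaps; Zfp3 stands at 2.37 CPM with TL1A and 15.03 CPM in medium.

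The promoters of Zfp709, the member with the next largest increase after Zfp983, and of Zfp3, the deepest decrease, are shown because a searched motif was found in both; that of Zfp983 holds none. Windows of 250 bases before to 50 after the start were taken from RefSeq (GRCm38.p6) and matched 211 of the 247 members. The ETS motif CCGGAAG, searched on both strands, is in capitals. The windows are chr8:71881818-71882117 for Zfp709 and chr11:70764197-70764496 for Zfp3, both on the plus strand.
Zfp709: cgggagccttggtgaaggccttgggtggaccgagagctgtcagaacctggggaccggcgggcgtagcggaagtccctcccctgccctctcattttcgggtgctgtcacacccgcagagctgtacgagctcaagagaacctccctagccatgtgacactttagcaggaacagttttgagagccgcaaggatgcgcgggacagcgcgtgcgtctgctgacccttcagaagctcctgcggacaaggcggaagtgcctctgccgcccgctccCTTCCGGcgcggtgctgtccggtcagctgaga
Zfp3: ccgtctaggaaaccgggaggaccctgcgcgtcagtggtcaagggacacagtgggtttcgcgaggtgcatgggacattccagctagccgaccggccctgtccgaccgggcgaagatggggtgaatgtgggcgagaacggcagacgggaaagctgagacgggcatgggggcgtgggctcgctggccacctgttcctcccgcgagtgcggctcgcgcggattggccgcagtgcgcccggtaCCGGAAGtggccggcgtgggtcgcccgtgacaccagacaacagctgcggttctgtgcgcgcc
Both windows hold the motif once, in opposite orientations. They are rich in GC, at 63.7% in Zfp709 and 68.3% in Zfp3, and carry 23 and 34 CpG pairs.

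The ETS motif was found in 24.2% of the members' genes, against 9.93% of all genes in the promoter table. It was in 7 of the 23 higher members with a window (30.4%), in 14 of 60 lower members (23.3%) and in 30 of 128 members not called (23.4%), so members of all 3 classes held it at a higher share than the table. The median window had 13 CpG pairs in the members and 7 in the table, and a median GC content of 54.3% and 52.7%. Motifs bound by factors downstream of TNF receptors were rare. The kappaB motif GGGANTTTC was in 3 members' genes (1.42%, against 1.29% of all genes), of which 1 was higher and none lower. The AP-1 motif TGANTCA was in 3.79% of members' genes, against 8.97% of all genes, and in none of the higher members. The CRE motif TGACGTCA was in 4.27%, against 2.03% of all genes. The YY1 motif AAGATGGCG was in 3.32% of members' genes, against 1.64% of all genes. The NRF1 motif GCGCATGCG was in 4.27%, against 1.95% of all genes. All were searched on both strands, and none contains another. A match is a string of letters and no evidence of binding, and these shares were not tested. All genes here means the 27025 genes of the promoter table, which was not limited to genes tested for TL1A. The members were chosen by their counts. Whether their motif shares and CpG pairs differ from those of other genes with the same minimum count was not tested.

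A KRAB box was found in 152 members, none was found in 91, and 4 had no coding sequence. The pattern did not need both parts of the box. Both parts were found in 130 members, of which 18 were higher and 39 lower. Of the 152 KRAB members, 19 were higher (12.5%) and 45 lower (29.6%), with a median log2 fold change of -0.31. Of the 91 without, 7 were higher (7.69%) and 22 lower (24.2%), with a median of -0.12. Of all genes of the same minimum count, 21.9% were higher and 22.9% lower. The classes thus leaned the same way, and no test compared them. The pattern can miss a degenerate box, as it did in Zfp263, which is classed here as having none. A match to only part of the pattern may also lie outside a KRAB box, which was not checked. In the plot of change by KRAB box, the 5 increases of at least 2-fold lie in the KRAB class, and the 3 deepest decreases, among them Zfp385c with its few TL1A reads, lie outside it.

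**Figure D3:**
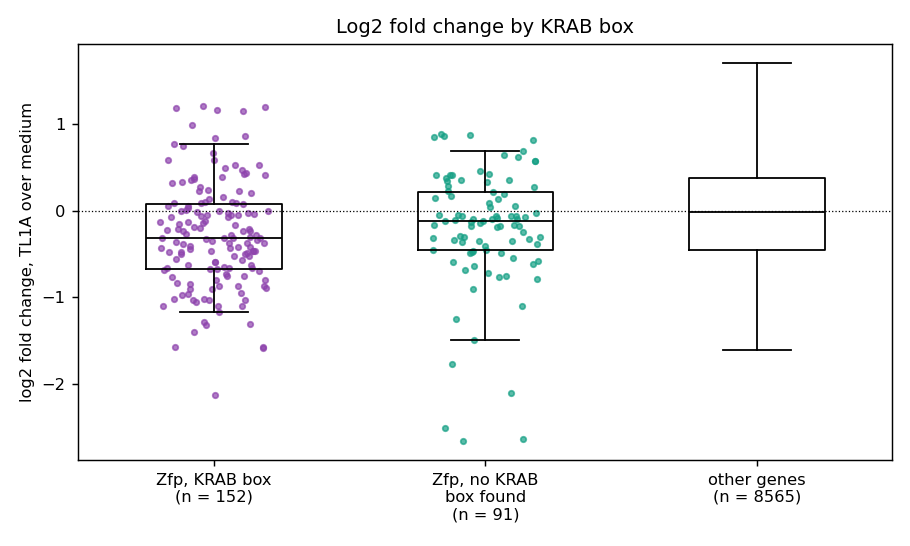
Log2 fold change of TL1A over medium for members with a KRAB box (n = 152), members with none found (n = 91) and the other genes whose mean count was 20 or more (n = 8565). Points are members; boxes give the quartiles and the median, and whiskers reach from the 5th to the 95th percentile (other genes without points). The medians of the Zfp classes are -0.31 and -0.12.

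Over all members, the median was 10.5 fingers in higher members, 11 in lower members and 11 in members not called, over a range of 0 to 33. KRAB members had a median of 12 fingers and the others 7. Within the KRAB class the median was less negative in members with more fingers. The median log2 fold change was -0.44 in 31 KRAB members with 5 to 9 fingers, of which 3 were higher (9.68%) and 12 lower (38.7%). It was -0.27 in 85 with 10 to 15 fingers, of which 11 were higher (12.9%) and 22 lower (25.9%). It was -0.07 in 32 with 16 or more, of which 5 were higher (15.6%) and 9 lower (28.1%). The 4 with fewer fingers had a median of -0.93, and 2 of them were lower. Over all genes of the same minimum count 21.9% were higher and 22.9% lower. These classes were not compared by a test. The summed level of the KRAB members was 6186 and 6125 CPM with TL1A, against 6708 and 6703 CPM in medium. That of the members without was 4991 and 4970 CPM with TL1A, against 5400 and 5157 CPM in medium. Both sums were lower in each TL1A library than in each medium library on the TMM scale.

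Among the partners through which KRAB proteins silence DNA, 24 were listed and 18 could be tested, of which 2 were higher and 4 lower. That is 33.3% called, under the 42.3% of all genes tested. Trim28, the scaffold itself, had 842 and 874 reads with TL1A, against 708 and 935 in medium, and did not pass (log2 fold change 0.28, edgeR adjusted p = 0.126, SE 0.13). Its libraries overlapped in raw reads but not in CPM. The NuRD helicases differed in direction: Chd4 rose by 0.49 on the log2 scale (SE 0.10), with 5176 and 4610 reads with TL1A against 3878 and 4204 in medium. Chd3 fell by 1.19 (SE 0.12), with 312 and 334 reads with TL1A against 816 and 889 in medium. With total count scaling Chd4 was no longer called, at an edgeR adjusted p of 0.0727.

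Mphosph8, a subunit of the HUSH silencing complex, fell by 0.36 on the log2 scale (SE 0.08). Atf7ip, a partner of SETDB1, fell by 0.55 (SE 0.13), and Mta2, another NuRD subunit, fell by 0.34 (SE 0.10). Without TL1A replicate 1 the edgeR adjusted p was 0.0570 for Mphosph8 and 0.0590 for Atf7ip, and the list held 1 higher and 2 lower genes. Setdb1, Dnmt1, Uhrf1, Daxx, Trim24 and Trim33 had 0 to 4 reads per library over 2 to 4 transcript rows each and were not tested. Reads shared by the rows of a gene were not counted, so these low counts need not mean low expression.

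By level, Zfp263 led the members. It had 9180 and 9667 reads in TL1A libraries, against 9045 and 7709 reads in medium libraries. Its level was 844 ± 14.4 CPM with TL1A and 649 ± 101 CPM in medium (SD, n = 2 each), a log2 fold change of 0.38 (edgeR adjusted p = 0.0214, SE 0.10). The call was lost without TL1A replicate 1 (edgeR adjusted p = 0.0569) and with total count scaling (edgeR adjusted p = 0.364). Per kilobase of transcript its level was 260 CPM with TL1A and 200.2 CPM in medium, which was also far above that of Zfp445, at 68.7 and 58.8 CPM per kilobase. Zfp445, a KRAB protein that keeps imprints together with Zfp57, had 4522 and 4985 reads with TL1A, against 4850 and 4554 in medium. It narrowly missed the threshold (log2 fold change 0.23, edgeR adjusted p = 0.0567, SE 0.08) and turned to -0.03 with total count scaling. RLE factors, no filter, DESeq2, limma-voom and leaving out medium replicate 1 each called it higher.

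Zfp110, known as an interactor of the neurotrophin receptor p75, a member of the TNF receptor superfamily, had 2667 and 2558 reads with TL1A, against 3855 and 4277 in medium. It fell by 0.42 on the log2 scale (edgeR adjusted p = 0.00557, SE 0.08), and at 0.0525 was not called without TL1A replicate 2. Zfp292 had 2341 and 2328 reads with TL1A, against 3297 and 3385 in medium, and fell by 0.30 (edgeR adjusted p = 0.0171, SE 0.08). Without TL1A replicate 2 its edgeR adjusted p was 0.158. Zfp871 and Zfp317 completed the 6 most abundant members and did not pass, with log2 fold changes of -0.23 (SE 0.10) and -0.16 (SE 0.08).

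Among 16 Zfp genes listed for roles in lymphocytes and immunity, 10 were members, of which 1 was higher and 2 lower. That is 30% called, under the 42.3% of all genes tested. The higher one was Zfp608, known to repress Rag gene expression in developing mouse thymocytes. Zfp609, its paralogue, had 41 and 41 reads with TL1A, against 24 and 28 in medium, and did not pass (log2 fold change 0.87, edgeR adjusted p = 0.0756, SE 0.34). The lower ones were Zfp292, described above, and Zfp260, a factor best known from heart muscle, which had 1438 and 1327 reads with TL1A, against 1846 and 2165 in medium. Zfp260 fell by 0.32 on the log2 scale (edgeR adjusted p = 0.0468, SE 0.11). The call was also lost with RLE factors and DESeq2, and its edgeR adjusted p rose to 0.0921 with a replicate block, 0.299 without TL1A replicate 2 and 0.194 without medium replicate 2. Zfp91, known in human cells as a ubiquitin ligase of the NF-κB inducing kinase NIK, had 1238 and 1167 reads with TL1A, against 1479 and 1600 in medium, and did not pass (log2 fold change -0.14, SE 0.10). Zfp148, Zfp64, Zfp318, Zfp335 and Zfp35 had log2 fold changes of -0.12 to 0.06 and did not pass either. Zfp281 and Zfp219 were listed at 0 in all libraries, over 2 and 4 transcript rows. Reads shared by the rows of a gene were not counted, so these values need not mean absence.

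Among 13 genes listed for roles in RNA and translation, 11 were members, of which 1 was higher and 1 lower. The called share was 18.2%, also under the 42.3% of all genes tested. Zfp207, known in human cells as a kinetochore and spindle protein that also affects splicing, had 1233 and 1228 reads with TL1A, against 2436 and 2432 in medium. It fell by 0.77 on the log2 scale (edgeR adjusted p = 0.000408, SE 0.09), and its libraries were nearly alike within each condition. Zfp598, known in human cells as the ubiquitin ligase that senses collided ribosomes, had 413 and 370 reads with TL1A, against 313 and 348 in medium. It rose by 0.46 (edgeR adjusted p = 0.0432, SE 0.15), but its edgeR adjusted p was 0.0833 with a replicate block, 0.231 without TL1A replicate 1, 0.125 without medium replicate 1 and 0.0652 without medium replicate 2. With DESeq2 the adjusted p was 0.0623, and with total count scaling the edgeR adjusted p was 0.294. Zfp385a had 3 and 15 reads with TL1A, against 43 and 28 in medium, and did not pass (log2 fold change -1.77, edgeR adjusted p = 0.0615, SE 0.65). Zfp106, an RNA-binding protein, did not pass either (log2 fold change 0.22, edgeR adjusted p = 0.0724, SE 0.08). The other 7, Zfp330, Zfp346, Zfp593, Zfp622, Zfp638, Zfp706 and Zfp830, had log2 fold changes of -0.34 to 0.69 and were not called.

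Among 24 genes listed for roles in chromatin, imprinting, retroelement silencing and ubiquitin or SUMO transfer, 16 were members, of which 1 was higher and 3 lower. The called share was 25%, against 42.3% of all genes tested. The higher one was Zfp598, which is also the higher gene of the RNA and translation list. The lower ones were Zfp57, Zfp687 and Zfp644. Zfp687, a transcription factor whose human counterpart pairs with ZNF592 and ZMYND8, had 386 and 431 reads with TL1A, against 727 and 838 in medium, and fell by 0.72 on the log2 scale (edgeR adjusted p = 0.00252, SE 0.12). Its partner Zfp592 did not pass (log2 fold change 0.14, SE 0.11). Zfp644, whose human counterpart is a partner of the histone methyltransferases G9a and GLP, had 584 and 689 reads with TL1A, against 986 and 1079 in medium. It fell by 0.49 (edgeR adjusted p = 0.00941, SE 0.11), and was not called at 0.0682 without TL1A replicate 1. Zfp809, which silences retroviruses in mouse embryonic cells, had 146 and 142 reads with TL1A, against 141 and 171 in medium, and did not pass (log2 fold change 0.10, SE 0.19). So of the pair of imprint keepers, Zfp57 fell and Zfp445 was not called.

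Position gave a further description. Runs of neighbouring Zfp genes, taken in the order of protein-coding genes of the RefSeq table, held 148 of the members, of which 17 were higher and 46 lower. That is 11.5% higher and 31.1% lower. Outside runs 9 of 99 were higher (9.09%) and 21 lower (21.2%). Of all genes of the same minimum count, 21.9% were higher and 22.9% lower. Among KRAB members, 57 of 121 in runs were called (47.1%) and 7 of 31 outside them (22.6%), against 44.9% of all genes of the same minimum count. The share in runs was thus near that of all genes. The median log2 fold changes were alike, at -0.31 in runs and -0.32 outside, with 68.6% and 83.9% negative. The TL1A and medium libraries did not overlap for 76.0% and 74.2% of these members. Calls depend on depth, which was not compared between the classes, and the difference in called share was not tested. The 33 runs with at least 2 members included 14 with at least 2 calls, and 5 runs held calls in both directions. On chromosome 17, 6 of 42 members were higher (14.3%) and 16 lower (38.1%). Chromosome 7 had 7 of 62 higher (11.3%) and 18 lower (29.0%). Chromosome 13 had 2 of 28 higher (7.14%) and 9 lower (32.1%). Chromosome 9 had 3 of 16 higher (18.75%) and none lower. These chromosomes held the most members, and their shares were not tested.

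The run on chromosome 17 held 18 members, all of its Zfp genes in the table and all with a KRAB box, of which 3 were higher and 9 lower. Over all genes of the same minimum count 21.9% were higher and 22.9% lower, and single runs were not tested. The 3 higher ones, Zfp948, Zfp983 and Zfp760, followed each other. Zfp948 had 1175 and 1269 reads with TL1A, against 930 and 957 in medium, and rose by 0.59 on the log2 scale (edgeR adjusted p = 0.00211, SE 0.09), next to the values of Zfp983 and Zfp760 given above. Zfp229 and Zfp820, the next in order, had log2 fold changes of 0.86 (SE 0.35) and 0.47 (SE 0.48) and did not pass, at 54 and 76 reads with TL1A against 50 and 32 in medium for Zfp229. From Zfp995 to the end of the run, 7 of 8 members were lower. Of these, Zfp944, Zfp943 and Zfp758 each lost the call when 1 library was left out. The edgeR adjusted p of Zfp944 was 0.0517 without TL1A replicate 1, 0.0633 without TL1A replicate 2 and 0.0696 without medium replicate 1. Their log2 fold changes ran from -1.58 in Zfp947 and -1.40 in Zfp995 to -0.49 in Zfp758. Zfp942, the exception, had 571 and 685 reads with TL1A, against 1090 and 776 in medium, and did not pass (log2 fold change -0.37, edgeR adjusted p = 0.159, SE 0.19). At the other end Zfp677 and Zfp51 were lower, at -0.75 and -0.87, among Zfp54, Zfp53 and Zfp52, which were not called.

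**Figure D4:**
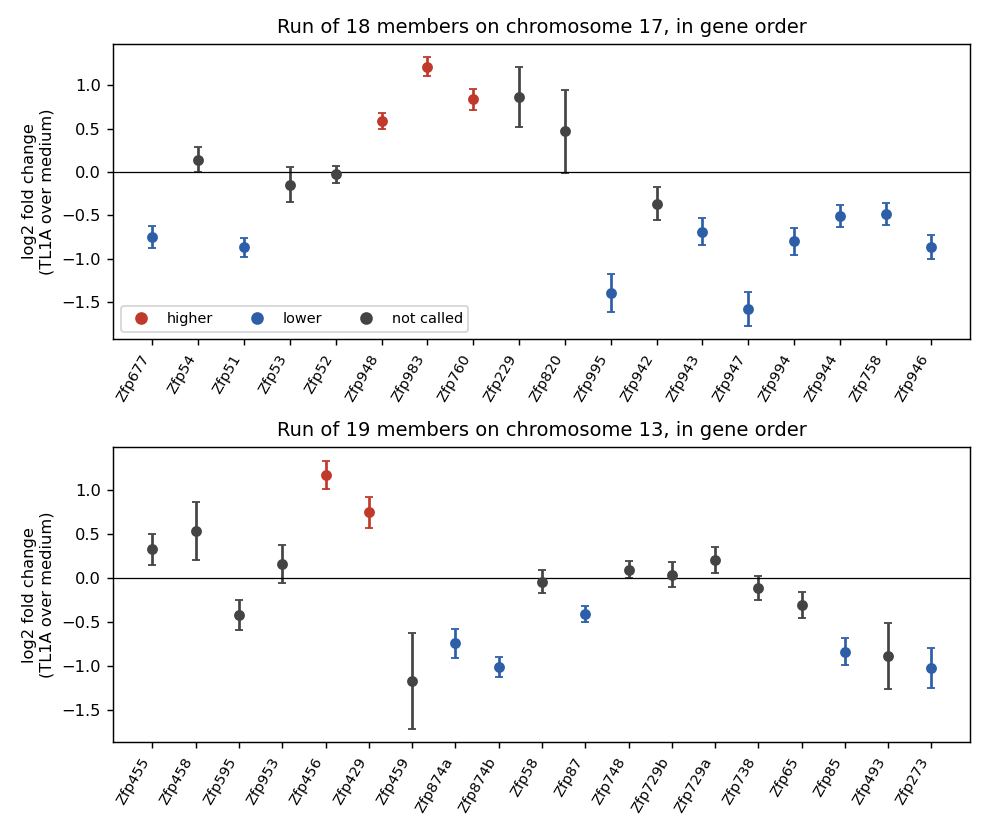
Log2 fold change of TL1A over medium for the members of the longest runs of neighbouring Zfp genes, on chromosome 17 (top, 18 members) and chromosome 13 (bottom, 19 members), in gene order from left to right. Points are coloured by call and bars give the standard error of the edgeR fit. On chromosome 17 the 3 higher genes are next to each other and 7 of the last 8 are lower; on chromosome 13 the 2 higher genes are next to each other.

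The promoters of 4 genes of the chromosome 17 run are shown, a pair of adjacent higher genes and the pair with the most alike windows. Zfp983 and Zfp760, at chr17:21650361-21650660 and chr17:21707491-21707790 on the plus strand, were both higher and hold none of the searched motifs. Zfp943 and Zfp758, at chr17:21962309-21962608 and chr17:22361213-22361512 on the plus strand, were both lower. In the last pair capitals mark the 8 bases of each window that are not matched in the other.
Zfp983: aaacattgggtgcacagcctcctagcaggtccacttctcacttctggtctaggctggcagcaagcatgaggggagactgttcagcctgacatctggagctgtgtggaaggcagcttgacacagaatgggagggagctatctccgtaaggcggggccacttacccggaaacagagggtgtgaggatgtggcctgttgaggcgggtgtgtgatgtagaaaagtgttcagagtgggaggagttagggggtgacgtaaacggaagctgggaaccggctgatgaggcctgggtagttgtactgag
Zfp760: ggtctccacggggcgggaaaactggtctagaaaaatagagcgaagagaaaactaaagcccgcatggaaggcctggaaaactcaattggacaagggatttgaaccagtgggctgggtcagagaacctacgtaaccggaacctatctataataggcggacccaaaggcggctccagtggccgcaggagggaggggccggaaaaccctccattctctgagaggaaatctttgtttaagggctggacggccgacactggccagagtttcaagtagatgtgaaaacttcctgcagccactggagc
Zfp943: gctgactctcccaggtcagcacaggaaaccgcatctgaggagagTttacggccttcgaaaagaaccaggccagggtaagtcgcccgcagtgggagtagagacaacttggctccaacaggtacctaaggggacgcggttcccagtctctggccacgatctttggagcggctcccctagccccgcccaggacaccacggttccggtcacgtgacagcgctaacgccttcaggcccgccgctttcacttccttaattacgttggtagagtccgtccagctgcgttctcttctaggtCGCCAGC
Zfp758: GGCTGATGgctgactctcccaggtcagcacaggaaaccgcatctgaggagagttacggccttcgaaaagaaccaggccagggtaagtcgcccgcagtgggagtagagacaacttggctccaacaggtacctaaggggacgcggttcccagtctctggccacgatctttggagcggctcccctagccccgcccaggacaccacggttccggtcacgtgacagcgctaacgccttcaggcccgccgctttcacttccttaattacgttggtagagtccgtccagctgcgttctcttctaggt
The windows of Zfp943 and Zfp758 were 97.3% identical when aligned end to end, and the capitals lie mostly at the ends, where the windows are offset. Zfp943 had 407 and 530 reads with TL1A, against 755 and 1000 in medium, and fell by 0.69 on the log2 scale (edgeR adjusted p = 0.00993, SE 0.16). Without medium replicate 2 its edgeR adjusted p was 0.0521. Zfp758 had 490 and 469 reads with TL1A, against 791 and 771 in medium, and fell by 0.49 (edgeR adjusted p = 0.0171, SE 0.13). Its edgeR adjusted p was 0.112 without TL1A replicate 2 and 0.0600 without medium replicate 1. The windows of Zfp983 and Zfp760 were 59.3% identical, which equals the median over all 136 pairs of the 17 promoters of the run. The lowest pair was at 55.0%, and a gapped alignment raises the identity of any pair. Zfp942 and Zfp944, the next pair in identity, were at 91.3%, and of these Zfp944 was lower and Zfp942 was not called. Other alike pairs had different or like calls. Zfp53 and Zfp983, at 72.3%, were not called and higher, and Zfp820 and Zfp947, at 70.7%, were not called and lower. The neighbours Zfp948 and Zfp983, at 69.7%, were both higher.

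The run on chromosome 13 held 19 members of 20 Zfp genes, all with a KRAB box, of which 2 were higher and 5 lower. Over all genes of the same minimum count 44.9% were called, 21.9% higher and 22.9% lower. Zfp456 and Zfp429, both higher, were next to each other. Zfp429 had 351 and 456 reads with TL1A, against 300 and 255 in medium, and rose by 0.74 on the log2 scale (edgeR adjusted p = 0.0118, SE 0.17). Without TL1A replicate 2 its edgeR adjusted p was 0.0520. Zfp874a and Zfp874b, neighbours with proteins of 447 residues and 10 fingers each, were both lower, at -0.75 (SE 0.17) and -1.02 (SE 0.11). Zfp273, Zfp85 and Zfp87 were lower at -1.03, -0.84 and -0.41, and Zfp87 was not called without TL1A replicate 2 (edgeR adjusted p = 0.0768). The other 12 members were not called, and ranged from -1.17 in Zfp459, at 20 and 10 reads with TL1A against 25 and 55 in medium, to 0.53 in Zfp458.

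The third run, on chromosome 7, held 9 members of 15 Zfp genes, of which 1 was higher and 3 lower. Over all genes of the same minimum count 44.9% were called, 21.9% higher and 22.9% lower. Zfp382, given above as higher, lay between Zfp260, which was lower, and Zfp146, which was not called. Zfp74 had 103 and 101 reads with TL1A, against 255 and 253 in medium, and fell by 1.10 on the log2 scale (edgeR adjusted p = 0.00219, SE 0.18). Zfp420 fell by 0.61 (edgeR adjusted p = 0.0335, SE 0.19). The adjusted p was 0.0921 with DESeq2, and the edgeR adjusted p was 0.156 without TL1A replicate 1 and 0.159 without medium replicate 2. Zfp84, Zfp940, Zfp383 and Zfp566 were not called.

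Copies of these genes share sequence, and reads that align to several places were not counted. As a measure, each member's transcript was cut into words of 50 bases, and the share of words that also occur in a transcript of another gene was counted. The median share was 0.55% over 246 members, and 32 members had more than 20%, of which 3 were higher, 14 lower and 15 not called. Over all members 10.5% were higher and 27.1% lower, and over all genes tested 20.6% and 21.7%. The calls among these 32 members were not tested against either. In Zfp983 the share was 9.83%, in Zfp3 it was 0% and in Zfp831 it was 0%. In Zfp947 and Zfp995 it was 20.05% and 20.9%, each mainly with the other, and in Zfp976 it was 29.1%, mainly with Zfp975. In Zfp85 and Zfp273 it was 25.2% and 24.3%, again each mainly with the other, and in Zfp456 and Zfp429 it was 16.5% and 26.1%, mainly with Rsl1. How far this affects their counts was not tested. Of 19 members with several transcript rows, 8 had at least 2 rows that could be tested, and none showed unequal change between rows, where 1.12% of 268 such genes did.

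Of 39 Zbtb, Zkscan and Zscan genes with a number and the same minimum count, 3 were higher (7.69%) and 12 lower (30.8%), with a median log2 fold change of -0.06. All 6 Zscan genes had negative values and 5 were lower. Of 29 Zbtb genes 18 had positive values, with a median of 0.13, although 3 were higher and 6 lower. The shares of all genes of that minimum count were 21.9% higher and 22.9% lower. The Zfp members and these families were not compared by a test.

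The minimum of 20 counts left out 135 Zfp genes. Of these 50 were at 0 in all libraries, 28 of them genes with several transcript rows, which were counted only over parts that belong to a single row. Of the 85 with reads, 15 were tested and 1 was called, Zfp786, which had 5 and 2 reads with TL1A, against 24 and 16 in medium. Just inside the minimum lay Zfp316, Zfp120, Zfp385a and Zfp985, with mean counts of 24.8, 22.5, 22.3 and 20. Just outside it lay Zfp341, Zfp133-ps, Zfp444 and Zfp82, with mean counts of 18.3, 17.8, 16.3 and 14.8.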

How the data were processed

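RNA-seq counts of 2 TL1A-stimulated and 2 medium libraries of mouse ILC3s were used. The SMARTer kit for low RNA input was used for cDNA, per the labels' protocols. The submitters' processing notes name CASAVA, STAR, HTSeq and build mm9, without versions or strand setting. Per the file headers, the authors deposited read counts for each RefSeq transcript, and the values are whole numbers. A read in an exon shared by transcripts is then ambiguous (33.7% to 34.0% of assigned plus ambiguous reads), and antisense or overlapping genes are not separable if strand was ignored. The table held 33535 transcript rows. The 5 summary rows, with 69.9% to 71.3% of each column's total, were left out.

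Rows were matched to symbols through the RefSeq gene table of GRCm38.p6 (33154 rows matched, 381 kept their accession) and summed per gene. edgeR 4.0.16 in R 4.3.3 was used with filterByExpr (minimum count 10), TMM factors (0.908 and 0.921 for TL1A, 1.09 and 1.09 for medium) and the quasi-likelihood test with group as the only term, two-sided, with Benjamini-Hochberg adjustment over 9852 genes and a threshold of 0.05. The standard error is the log2 fold change over the square root of F. With 2 libraries a group, the smallest p of an exact permutation test is 0.333, so calls rest on a spread shared across genes (common coefficient of variation 0.12). Libraries of a group differed beyond sampling noise (chi-square over degrees of freedom 8.01 for TL1A, 12.3 for medium). The scripts were tested on simulated data.

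C2H2 fingers and the KRAB box were found by pattern in translated GENCODE M21 coding sequences, as no protein table was used. A member was classed as KRAB without needing both parts of the box, and 130 members had both. A run was at least 2 Zfp-number genes next to each other among protein-coding genes. Promoter windows were from RefSeq. Windows were aligned globally with Biopython 1.88.

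The members and lists were chosen with earlier results of these data known. Named members were the 8 largest called increases and decreases without overlap, the 6 most abundant, the 4 smallest p-values of each role list, those beside the minimum count and the longest runs; in the corepressor list the 5 smallest p-values were taken, of which 1 gene is not reported here. Genes outside this rule (Trim28, Mta2, Zfp91, Zfp809, Zfp592 and Zfp786, and range ends) were chosen after their values were seen. Alternatives were RLE factors, no filter, DESeq2 1.42.0, limma-voom (limma 3.58.1), a replicate block, leaving out each library, single-row genes, other minimum counts and a stricter KRAB pattern. Total count scaling and a crossed block were added after seeing the data.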

Additional observations from a re-analysis of the deposited data

How the results depend on the processing

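Of 42 named genes tested, 23 kept their direction and their side of the threshold under every alternative run. With total count scaling, the counts of higher and lower genes were 10 and 120 for the members, 8 and 73 with a KRAB box, 2 and 43 without, and 8 and 74 in runs; the corepressor list then had 1 higher gene, and the members' median was -0.49. That median was -0.21 with RLE factors, -0.21 with DESeq2 and -0.19 at a minimum of 50 counts. Leaving out 1 library each gave 15 to 24 higher and 51 to 60 lower members, 12 to 18 higher and 31 to 39 lower with a KRAB box, 3 to 6 higher and 19 to 20 lower without, 11 to 15 higher and 34 to 39 lower in runs, 1 to 4 higher and 2 to 4 lower corepressors, 2 to 6 higher and 8 to 10 lower genes of other C2H2 families, and medians of -0.25 to -0.19. Of the called members, 11 of 26 higher and 37 of 67 lower were called in each of the fits with RLE factors, no filter, DESeq2, limma-voom, the replicate block and 1 library left out, and all kept their direction in them.

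The replicate block gave 20 higher and 57 lower members, and 4 higher ones without a KRAB box. Same-numbered libraries deviated in opposite ways (correlation -0.18) and are only 2 pairs, so the number was not taken to pair libraries; the crossed pairing gave 5 higher corepressors and 5 higher genes of other C2H2 families. With single-row genes 1 corepressor was higher. With total count scaling Zfp445 turned to -0.032 and Zfp106 to -0.041. The uncalled, low Zfp120, Zfp444 and Zfp82 crossed 0 when a library was left out, with ranges of -0.17 to 0.080, -0.030 to 0.65 and -0.24 to 0.25, and Zfp82 turned to 0.0033 with DESeq2. The cause was not tested. Of members with 20 to 100 counts 13.2% were called, against 29.9% of all genes at that depth.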
